A study of Mus musculus with 34 samples.

Results

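ATP-binding cassette (ABC) proteins and organic solute carriers move bile acids, drugs, lipids and conjugated hormones across cell membranes. The genes described here are the protein-coding mouse genes whose symbols begin with Abca to Abcg, Slco, Slc22a or Slc10a followed by a number. They were found by symbol alone, and 96 of the 51368 genes in the count table met the rule (of 21846 protein-coding genes). The set held 16 ABCA, 10 ABCB, 10 ABCC, 4 ABCD, 1 ABCE, 3 ABCF and 6 ABCG genes, 25 Slc22, 14 Slco and 7 Slc10 genes. A pair of further matches, Slco6b1 and Slc22a13b-ps, were not protein-coding and were left out. The hepatocyte is polarised. On its blood-facing (sinusoidal) side, Slc10a1, the sodium-dependent bile acid carrier, and the organic anion and cation carriers of the Slco and Slc22 families take up solutes. On its bile-facing (canalicular) side, ABC pumps such as Abcb11 for bile salts, Abcc2 for glucuronide and glutathione conjugates and Abcg5 with Abcg8 for sterols export them.

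The series compared ways of making RNA-seq libraries from mouse liver RNA, and 34 libraries were measured. Per the labels, tissue came from 1 wild-type C57BL/6J mouse aged 12 weeks, so every liver library was a technical preparation and no comparison had biological replicates. The labels disagree on its sex, and the expression was that of a male. Xist had at most 10 counts in any liver library and 1 in heart. The Y-linked Ddx3y had 28.5 to 69.5 normalised CPM in liver libraries and 37.7 in heart. Ribosomal RNA (rRNA) was kept down by polyA selection, which captures RNA by its poly(A) tail, by pull-down, which removes rRNA on hybridised probes, or by digestion, in which probe-bound rRNA is degraded by enzymes. Each method used its own Illumina kit and gave 9 liver libraries from 200 ng of RNA, 1 at every combination of slow, medium and fast PCR ramp (how fast the thermocycler changes temperature) with short, medium and long fragments. Unselected liver libraries, with no rRNA removal, were made from 20 ng with a slow ramp and medium fragments, 3 in batch 1 beside the polyA libraries and 3 in batch 2 beside the pull-down and digestion libraries. The 1 heart library was unselected and belonged to batch 1. Input and kit differed together with the method, so these cannot be told apart in comparisons with unselected libraries. Those comparisons stay within a batch, whereas setting polyA libraries directly against digestion or pull-down libraries also sets batch 1 against batch 2.

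The fragment-length results are described below beside GC content, so stretches of 4 members of low and high GC are shown first. Each is 150 bases of coding sequence whose GC content is close to that of the whole transcript, from the longest transcript in GENCODE M21 on GRCm38, written 5′ to 3′ on the coding strand with every G and C in capitals. Slco1b2, the liver organic anion carrier, lies at chr6:141629518-141686646 on the plus strand, and its transcript has 38.6% GC. Slc10a2, the sodium-dependent bile acid carrier known from ileum and bile duct, lies at chr8:5083219-5105351 on the minus strand, with 35.7% GC. Slc22a7, an organic anion carrier, lies at chr17:46432183-46438457 on the minus strand, with 56.7% GC. Abcc10, a multidrug resistance-associated pump, lies at chr17:46303221-46328352 on the minus strand, with 57.5% GC. The first pair rose with fragment length in polyA libraries and the second pair fell.
Slco1b2, coding bases 78 to 227: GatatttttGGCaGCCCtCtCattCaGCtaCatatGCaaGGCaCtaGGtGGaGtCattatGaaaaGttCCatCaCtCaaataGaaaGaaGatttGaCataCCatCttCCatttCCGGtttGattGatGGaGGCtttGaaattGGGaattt
Slc10a2, coding bases 466 to 615: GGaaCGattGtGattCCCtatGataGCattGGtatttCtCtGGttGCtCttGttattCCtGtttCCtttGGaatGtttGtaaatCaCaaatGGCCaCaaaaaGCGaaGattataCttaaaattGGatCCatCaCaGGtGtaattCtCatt
Slc22a7, coding bases 152 to 301: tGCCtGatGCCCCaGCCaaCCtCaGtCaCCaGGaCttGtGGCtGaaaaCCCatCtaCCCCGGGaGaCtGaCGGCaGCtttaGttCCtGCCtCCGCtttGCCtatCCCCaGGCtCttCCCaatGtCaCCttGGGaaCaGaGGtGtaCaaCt
Abcc10, coding bases 19 to 168: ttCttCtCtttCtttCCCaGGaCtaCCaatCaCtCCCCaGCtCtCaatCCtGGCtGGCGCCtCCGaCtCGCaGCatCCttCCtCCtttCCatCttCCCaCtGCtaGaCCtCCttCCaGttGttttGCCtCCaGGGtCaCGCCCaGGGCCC

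Promoter sequence is shown for Slc10a1, Abcg5 and Abcg8, which were among the members lowest in heart, and no test links the letters to that difference. Abcg5 and Abcg8 are transcribed away from each other, and the RefSeq gene starts (GRCm38.p6) leave 109 bases between them, at chr17:84683012-84683120, written on the plus strand, the strand of Abcg8. For Slc10a1 the 250 bases before its start are shown, at chr12:80968706-80968955, written on the minus strand, which is its own. Capitals mark the only 6-base match to the TATA box motif TATAAA, which in both stretches is read on the opposite strand. RefSeq also lists a second start for Slc10a1 and for Abcg8, and the 250 bases before these, at chr12:80968080-80968329 and chr17:84676052-84676301, hold no match.
Between Abcg5 and Abcg8: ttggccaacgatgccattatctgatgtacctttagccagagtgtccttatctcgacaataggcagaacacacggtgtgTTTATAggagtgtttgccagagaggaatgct
Before Slc10a1: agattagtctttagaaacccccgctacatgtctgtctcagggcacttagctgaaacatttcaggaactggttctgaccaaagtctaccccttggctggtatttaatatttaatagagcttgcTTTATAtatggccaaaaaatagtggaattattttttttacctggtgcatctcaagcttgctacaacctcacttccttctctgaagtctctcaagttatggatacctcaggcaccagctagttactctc
RefSeq promoter windows (250 bases before to 50 after a start) were matched for 77 of the 96 members. TATAAA, searched on both strands with no other motif, lay in 16 of their 90 windows (17.8%, in 14 genes) against 4473 of all 32851 windows (13.6%). Among the 31 windows of members lower in heart, 10 held it. A match is a run of letters, not a shown binding site.

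Total counts (M stands for mega) were 23.5 to 41.4 M in polyA, 20.0 to 30.2 M in digestion and 19.9 to 21.7 M in unselected liver libraries, and 22.3 M in the heart library. Pull-down libraries held 23.4 to 39.2 M in 8 cases and 1.13 M in the library with slow ramp and long fragments, and values without it are given where it changes a call or moves a value by over 1.5 times. In unselected liver libraries 84.8 to 85.7% of counts fell on rRNA genes and Lars2 (80.6% in heart), against 14.2 to 24.5% after pull-down, 0.214 to 0.406% after polyA selection and 0.363 to 1.12% after digestion. The transporter set rested on 26378 to 28738 counts in each unselected liver library, and on 182681 to 313267 in each polyA library. Levels are given as normalised CPM, in which the library total is scaled by the trimmed mean of M-values (TMM) over the 33 liver libraries.

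Of the 96 members, 69 passed the filter on low counts across the 33 liver libraries, 22 had at most 3 counts in every liver library and 42 had at least 10 in every one. The 5 with no count in any liver library were Abca15, Abca16, Slc22a16, Slco6c1 and Slco6d1. In batch 1 the members together held 5767 to 5867 normalised CPM in unselected libraries and 5101 to 5813 with polyA selection. In batch 2 they held 5878 to 5990 in unselected libraries, 4467 to 5914 with pull-down and 5677 to 5808 with digestion. The 10 most abundant members held between 63.5% and 66.1% of the summed mean level in each of these 5 groups.

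Slc10a1 and Slco1b2 had the highest levels per kilobase (kb) in unselected liver. Per kb of the union of all exons of a gene, the mean level in the 3 unselected libraries of batch 1 was 111 ± 4.79 normalised CPM for Slc10a1, 108 ± 1.96 for Slco1b2, 96.1 ± 2.90 for Abcb11 and 85.0 ± 1.91 for Abcc2 (SD, n = 3 each). The first pair differed by less than their spread, and each later step down this order exceeded the SDs. The order depends on the length used. Per kb of the longest transcript the means were 160 for Slco1b2, 140 for Slc10a1, 108 for the peroxisomal fatty acid carrier Abcd3, 98.4 for Abcb11 and 90.4 for Abcc2. The values that follow are per kb of exon union. Abcc3, which pumps conjugates back to blood, stood at 60.9 ± 2.58 and Abcd3 at 57.4 ± 0.943 per kb. The sterol pump genes Abcg5 and Abcg8 stood at 29.5 ± 3.56 and 27.5 ± 0.994 per kb, within their spread of each other. The cholesterol exporter Abca1 stood at 29.8 ± 0.867, within the spread of Abcg5 but above Abcg8 in all libraries. The phospholipid floppase Abcb4 had 21.8 per kb, the drug pump Abcg2 5.47, Slc22a7 1.28 and the drug pump Abcb1a 0.812. Uptake genes thus ran from 111 down to 1.28 per kb and canalicular pumps from 96.1 down to 0.812. The library method moved this order. Abcc2 ranked 4 in both unselected batches and 8 after pull-down, at 48.8 per kb, and Abca6 ranked 8 in unselected batch 1 and 14 after polyA selection, at 31.1 per kb.

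**Figure D1:**
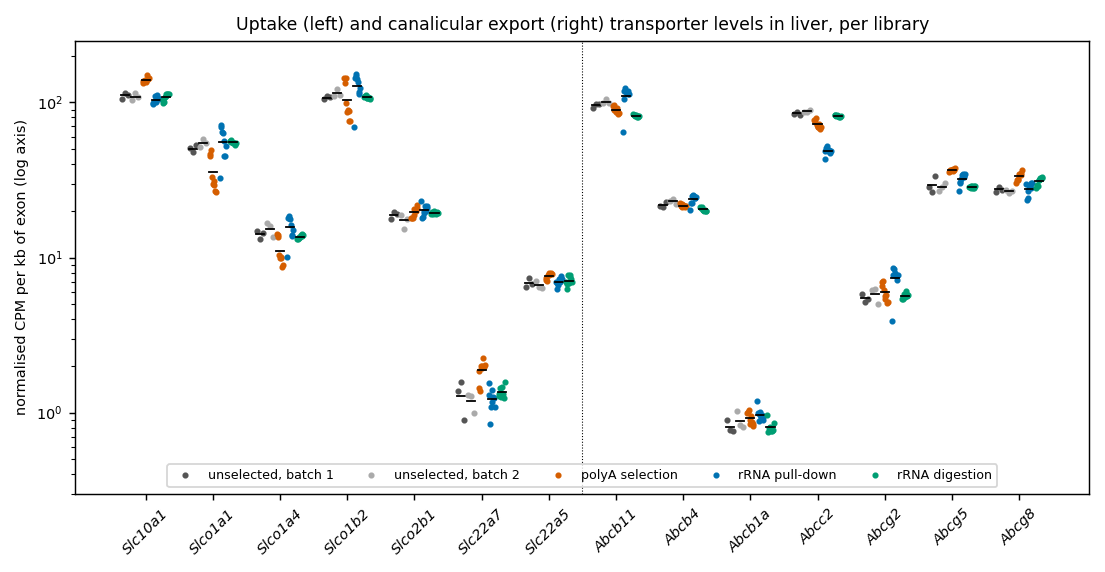
Levels of 7 uptake genes (left of the dotted line) and 7 canalicular export genes (right), in normalised CPM per kb of exon on a log axis, 1 point per library with a black bar at the mean of each group. Slc10a1 sits higher in all polyA libraries, Abcc2 lower in all pull-down libraries, and the polyA and pull-down points of Slco1b2 and Slco1a1 spread more widely than those of digestion.

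The first question was how selection changed these genes against unselected libraries of the same batch. PolyA selection raised Slc10a1, Abcg5, Abcg8 and the ABCF genes and lowered Slco1a1, Abcc2, Abca1 and Abcc9. It called 35 of 69 members at an adjusted p under 0.05, 12 higher and 23 lower, with 50.4 percent of all 15422 tested genes called (25.6 higher, 24.8 lower). The median log2 fold change was -0.08 for members and 0.04 for all genes. Directions are relative to the TMM scale throughout. With plain library totals the median gene stood higher by a log2 of 2.67 (polyA selection), 2.31 (pull-down) or 2.85 (digestion), and 69, 68 and 69 members were then called, all higher.

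Among uptake carriers, Slc10a1 rose clearly after polyA selection. Slc10a1 had 233, 246 and 253 normalised CPM in the unselected libraries of batch 1 and 295 to 332 (median 304) in the 9 polyA libraries. All polyA libraries lay above all unselected ones, and the log2 fold change was 0.35 (SE 0.04, adjusted p = 6.56e-08 by edgeR's quasi-likelihood test). Slco1a1, an organic anion carrier, had 252, 266 and 280 unselected and 140 to 262 (median 165) after selection. Most but not all polyA libraries were lower (log2 -0.57, SE 0.16, edgeR adjusted p = 0.00357), and the highest, a library with long fragments, lay inside the unselected range. Its neighbour Slco1a4 gave log2 -0.37 (SE 0.14, edgeR adjusted p = 0.0257), Slc22a7 0.58 (SE 0.22, edgeR adjusted p = 0.0325) and the carnitine carrier Slc22a5 0.19 (SE 0.06, edgeR adjusted p = 0.0496). The calls of Slco1a4, Slc22a7 and Slc22a5 were each lost without unselected replicate 1 and without replicate 3, at log2 -0.34 and -0.35, 0.64 and 0.37, and 0.15 and 0.18. Slco1b2 did not pass (520, 531 and 540 against 372 to 707, log2 -0.10, edgeR adjusted p = 0.682), and nor did Slco2b1 at log2 0.06. The unselected libraries all had medium fragments, and the polyA libraries of that length held 486, 427 and 438 for Slco1b2, all lower. Over medium-length libraries alone, an alternative chosen after seeing the data, Slco1b2 was called lower at log2 -0.22. Of the 8 uptake genes, 4 rose and 2 fell.

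Pull-down raised Abcg2 and Abcg5 and lowered Abcc2 and Slco2a1, and digestion called few transporters in the fit over all liver libraries. Pull-down called 21 of 69 members, 10 higher and 11 lower, against 32.8 percent of all genes (17.5 higher, 15.3 lower). DESeq2 split 22 calls as 5 higher and 17 lower. Without unselected replicate 1, 2 or 3 the higher calls after pull-down numbered 7, 6 and 9, with 10 lower each time. Several of the higher calls named below thus depend on single unselected libraries. Digestion called 6 of 69, 4 higher and 2 lower, against 14.7 percent of all genes (7.08 higher, 7.64 lower), and this count was the least settled. DESeq2 gave 11 calls (3 higher, 8 lower), leaving rRNA genes and Lars2 out of the scaling gave 8 (4 higher, 4 lower), and leaving the low-depth pull-down library out of the shared fit gave 10 (5 higher, 5 lower). With the 2 groups fitted alone, 27 of 68 members were called for digestion (11 higher, 16 lower), beside 3399 of all genes. Without unselected replicate 1, 2 or 3 digestion had 5, 2 and 3 higher and 1, 2 and 2 lower calls. All genes called then numbered 1635, 1303 and 1589, against 2271 with every library. Among the members named for each comparison that used the pull-down libraries, none lost its call without that library.

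After pull-down the uptake genes gave 1 call of 8. That was Slco2b1, an organic anion carrier, with 91.5, 106 and 113 normalised CPM in unselected batch 2 and 107 to 137 (median 120) after pull-down (log2 0.21, SE 0.07, edgeR adjusted p = 0.019). The ranges overlapped, and without unselected replicate 2 the log2 fold change was 0.13 and the call was lost. In the fit over all liver libraries none of the 8 was called after digestion, with log2 values from -0.18 for Slco1a4 to 0.21 for Slc22a7. The 8 uptake genes lay on average close to unselected in digestion libraries, with a median log2 of 0.07.

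Canalicular pumps were next, and Abcc2 was the clearest. It had 738, 744 and 761 normalised CPM in the unselected libraries of batch 2 and 369 to 450 (median 416) after pull-down. Every pull-down library lay below every unselected one, at log2 -0.83 (SE 0.05, edgeR adjusted p = 3.68e-14). PolyA libraries held 574 to 676 (median 615) against 713, 720 and 744 in batch 1, also with no overlap but by less (log2 -0.22, SE 0.05, edgeR adjusted p = 0.000481). Digestion libraries held 688 to 711 (median 699), below the unselected range by a log2 of -0.08 that did not pass (edgeR adjusted p = 0.334).

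The sterol half-transporters Abcg5 and Abcg8, which work as a dimer, rose together after polyA selection. Abcg5 had 71.4, 77.9 and 90.4 unselected and 96.7 to 102 (median 99.5) after selection (log2 0.32, SE 0.06, edgeR adjusted p = 2.99e-05). Abcg8 had 99.9, 102 and 107 unselected and 113 to 137 (median 128) after selection (log2 0.28, SE 0.05, edgeR adjusted p = 4.27e-05). Neither range overlapped. After the rRNA methods the pair parted. Pull-down called Abcg5 alone (72.8, 77.5 and 81.5 unselected, 72.7 to 93.3 selected, log2 0.19, edgeR adjusted p = 0.0132), and digestion called Abcg8 alone (98.2, 101 and 102 unselected, 106 to 123 selected, log2 0.22, SE 0.05, edgeR adjusted p = 0.00412). The difference between the genes was not tested.

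Abcb11, the bile salt export pump, passed the test against unselected libraries in no method. It had 477, 502 and 504 in unselected batch 1 and 433 to 493 after polyA selection, then 511, 513 and 541 in batch 2, 333 to 634 (median 590) after pull-down and 416 to 433 (median 421) after digestion. The digestion libraries lay entirely below the unselected ones (log2 -0.28, SE 0.10, edgeR adjusted p = 0.0664). The value of 333 was that of the low-depth pull-down library. Without that library Abcb11 was called higher after pull-down by log2 0.23 (edgeR adjusted p = 3.12e-05), against 0.14 with it (adjusted p = 0.349). Abcg2 rose after pull-down, from 41.1, 50.6 and 51.1 to a median of 62.8 (31.9 to 69.5, log2 0.44, SE 0.12, edgeR adjusted p = 0.00664), and its lowest value was again in that library, without which the log2 was 0.49. Abcb4 and Abcb1a were called against unselected libraries in none of the 3 methods. Leaving that library out of the shared fit brought a call for Abcb11 (log2 -0.26) and Abcb4 (log2 -0.14) after digestion, both lower. Of the 7 canalicular genes, polyA selection raised 2 and lowered 1, pull-down raised 2 and lowered 1, and digestion raised 1.

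Of the 4 sinusoidal exporters, 2 fell and 1 rose after polyA selection. Abca1, which loads cholesterol onto apolipoprotein A1, had 298, 313 and 314 normalised CPM unselected and 125 to 149 (median 134) after polyA selection, less than any unselected library in all 9 (log2 -1.18, SE 0.05, edgeR adjusted p = 1.3e-17). Abcc4, a cyclic nucleotide and bile acid pump, fell as well (log2 -0.81, edgeR adjusted p = 3.24e-06), while Abcc6 gave 0.30 and Abcc3 was not called. After pull-down Abca1 (log2 -0.31), Abcc3 (-0.23) and Abcc4 (-0.51) were lower, so 3 of the 4 sinusoidal genes fell, and after digestion none was called. The Abcc4 call after pull-down was lost without unselected replicate 2, at log2 -0.29.

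The 11 tested ABCA genes, lipid transporters with long transcripts, gave 7 falls and no rise after polyA selection. Of all genes, 24.8 percent were called lower and 25.6 percent higher, and fold changes ran with transcript length across coding genes, as described below. Abca6 had 283, 293 and 301 unselected against 146 to 200 (median 160) selected (log2 -0.78, SE 0.11, edgeR adjusted p = 5.14e-07), and no library overlapped. Abca9, next to it on chromosome 11, had 3.09, 3.76 and 4.45 unselected and 1.44 to 1.83 selected (log2 -1.22, SE 0.28, edgeR adjusted p = 0.000509). The 5 genes of that cluster, Abca8b, Abca8a, Abca9, Abca6 and Abca5, lie within chr11:109932190-110337716, and all but Abca8a (log2 -0.22, edgeR adjusted p = 0.0511) were called lower.

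The largest fall after polyA selection was in Abcc9, which encodes the sulfonylurea receptor 2 subunit of ATP-sensitive potassium channels. It had 24.5, 28.2 and 33.6 normalised CPM unselected and 7.75 to 11.3 (median 9.38) after selection, apart in all libraries (log2 -1.63, SE 0.10, edgeR adjusted p = 2.83e-14). Abcg1, a sterol exporter of macrophages and endothelium, fell from 7.10, 9.48 and 10.0 to 4.01 to 4.82 (log2 -1.07, SE 0.12, edgeR adjusted p = 1.39e-08). Abcc1, a broad conjugate pump, gave log2 -1.21 (SE 0.33, edgeR adjusted p = 0.00251) at no more than 3.09 normalised CPM, and the call was lost without unselected replicate 1, at -0.97. Abcg3 gave log2 -1.12 (edgeR adjusted p = 0.000434). Sums of sinusoidal endothelial, stellate and Kupffer cell markers were also lower after polyA selection. The summed level of 5 sinusoidal endothelial markers was 169 to 188 in unselected batch 1 and 72.9 to 77.4 in polyA libraries (4 of 5 lower), that of 5 stellate cell markers 104 to 118 and 42.5 to 44.0 (2 of 5 lower), and that of 5 Kupffer cell markers 129 to 140 and 88.8 to 93.1 (4 of 5 lower). No marker of these lists was at 0 in either group, and the 5 hepatocyte markers summed to 49677 to 50341 unselected and 63066 to 68796 after selection (4 higher, 1 lower), most of it Alb, with a mean of 37988 and 48953. In pull-down libraries, where Abcc9 (log2 0.30) and Abcg1 (0.47) were called higher, the endothelial sum was 217 to 265 (163 to 179 in unselected batch 2), the stellate sum 137 to 169 (114 to 117) and the Kupffer sum 189 to 259 (127 to 137). After digestion Abcc9 (log2 -0.14) and Abcg1 were not called, the latter with means of 1.32 per kb of exon and 1.07 unselected. The digestion sums lay below unselected batch 2, at 143 to 152 (endothelial), 103 to 107 (stellate) and 96.4 to 110 (Kupffer). Within the stellate list, mean Reln was 81.0 in unselected batch 1 and 19.0 after polyA selection. Lrat and Hand2 were also lower there, and Des and Colec11 higher. The part of these markers in the results was not tested.

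Pull-down had its own strong falls. Slco2a1, the prostaglandin carrier, had 78.8, 92.4 and 94.9 normalised CPM unselected and 41.4 to 63.7 (median 45) after pull-down, below in every library (log2 -0.97, SE 0.08, edgeR adjusted p = 8.92e-11). Abcc10, singled out after its values were seen, had 7.5, 8.16 and 10.1 unselected and 3.35 to 4.85 in 8 pull-down libraries, but 10.6 in the low-depth one (log2 -1.08, SE 0.21, edgeR adjusted p = 0.000128, and -1.11 without it). Slc22a23, an orphan carrier, fell by 0.48 on the log2 scale (SE 0.05, edgeR adjusted p = 5.99e-09) and the surfactant lipid carrier Abca3 by 0.34 (edgeR adjusted p = 5.62e-05). The latter pair went the other way after digestion, at log2 0.23 (edgeR adjusted p = 0.0018) and 0.21 (edgeR adjusted p = 0.0218). The digestion call of Abca3 was lost without unselected replicate 2, at 0.17.

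The mitochondrial half-transporters Abcb6 and Abcb8 rose after pull-down. Abcb8 had 14.6, 14.9 and 17.4 unselected and 18.2 to 30.2 (median 23.2) selected (log2 0.47, SE 0.10, edgeR adjusted p = 0.000606). Abcb6 rose by log2 0.37 (edgeR adjusted p = 2.97e-05), but 52% of its transcript 31-mers also occur in transcripts of other genes, chiefly Gm29253, so its estimate is uncertain. After polyA selection Abcb8 had log2 0.46 (edgeR adjusted p = 0.000252), while Abcb6 at 0.11 (adjusted p = 0.157) and Abcb10 at 0.07 (adjusted p = 0.464) did not pass the test; these values do not cover every mitochondrial half-transporter.

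ABC proteins without membrane spans act in translation. Abcf1 had 33.6, 35.1 and 38.6 normalised CPM in unselected batch 1 and 40.0 to 51.8 (median 48.3) after polyA selection, all higher (log2 0.43, SE 0.09, edgeR adjusted p = 9.35e-05). In batch 2 it had 31.1, 33.5 and 34.7 unselected and 24.4 to 26.8 (median 25.2) after digestion, all lower (log2 -0.33, SE 0.09, edgeR adjusted p = 0.00893). Abcf2 went the same ways, at 0.49 (edgeR adjusted p = 2.25e-05) and -0.29 (edgeR adjusted p = 0.0245). These were the 2 lower calls after digestion. Only 1 member was called lower without unselected replicate 1, and only 1 with no filter on low counts. All 3 ABCF genes rose after polyA selection, while Abce1, the ribosome recycling factor, gave log2 -0.31 (edgeR adjusted p = 0.0278). Pull-down also raised 2 of the 3 ABCF genes, Abcf2 (log2 0.26, edgeR adjusted p = 0.0188) and Abcf3 (log2 0.30, edgeR adjusted p = 0.00686), each with libraries that overlapped the unselected ones, while Abcf1 gave 0.03 (adjusted p = 0.97) and Abce1 0.22 (adjusted p = 0.157). Of the 7 peroxisomal and lysosomal genes, polyA selection lowered Abca2 and Abca3 and called no other.

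Genes that work beside the transporters but are not of these families were taken from a list of bile acid enzymes, carriers and nuclear receptors. Of 17 tested, polyA selection raised 12 and lowered 2, while 25.6 percent of all genes were called higher and 24.8 lower. Pull-down raised 10 and lowered 1 (all genes 17.5 and 15.3 percent), and digestion raised 2 (all genes 7.08 percent higher). The receptor Nr1i3 (CAR) had a log2 fold change of 0.75 (SE 0.04, edgeR adjusted p = 7.58e-16) and the bile acid receptor Nr1h4 (FXR) 0.48 (SE 0.06, edgeR adjusted p = 1.54e-07) after polyA selection. Atp8b1, a flippase of the canalicular membrane, fell (log2 -0.74, SE 0.08, edgeR adjusted p = 2.59e-09).

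**Figure D2:**
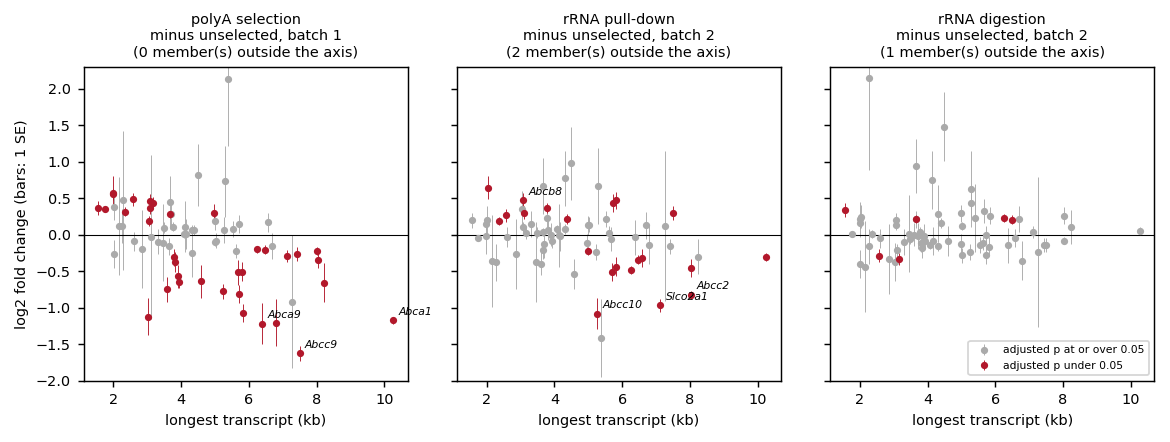
Log2 fold change of each tested member against the unselected libraries of its batch (bars are 1 SE) by length of its longest transcript, red where the adjusted p is under 0.05. Long transcripts such as those of Abcc9 and Abca1 lie lowest in the polyA panel, and called members of the digestion panel lie nearest to 0. A few members with low counts lie outside the axis: 2 in the pull-down panel and 1 in the digestion panel.

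The response to polyA selection ran with transcript length. Across the 69 tested members Spearman's rank correlation between the log2 fold change and the longest transcript was -0.54, as it was -0.59 across 13393 protein-coding genes. After pull-down this correlation was -0.35 in members and -0.43 in all coding genes, and after digestion 0.02 and 0.08. Spearman's rank correlation with GC content was highest for digestion, at 0.42 in members (0.27 in coding genes), against 0.33 (0.27) for polyA selection and 0.06 (0.09) for pull-down. All 6 members called after digestion lay between 53.33 and 57.09% GC. These are descriptions across genes of the same libraries, and genes are not independent replicates.

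Setting the rRNA methods against each other used 9 libraries on each side. Digestion against pull-down called 48 of 69 members, 26 higher and 22 lower, with 70.7 percent of all genes called (34.7 higher, 36.0 lower). Library totals called 59, all higher, with the median gene shifted by 0.55. Abcc2 was higher after digestion in all libraries (log2 0.74, SE 0.03, edgeR adjusted p = 2.75e-19), as were Slco2a1 (log2 1.00) and Abcc10, at 11.2 to 12.6 normalised CPM (log2 1.51, SE 0.09, edgeR adjusted p = 1.15e-15). Abcb11 was lower by 0.42 on the log2 scale (SE 0.06, edgeR adjusted p = 7.84e-07), Abcg2 by 0.44 and Abcb4 by 0.22. Of the 7 canalicular genes, digestion was higher for Abcc2 and Abcg8 and lower for the other 5. All 4 sinusoidal exporters were higher after digestion, and all 4 translation genes were lower, from -0.34 for Abce1 to -0.55 for Abcf2.

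PolyA selection against digestion called 49 of 69 members, 19 higher and 30 lower, with 80.6 percent of all genes called (38.4 higher, 42.2 lower). It spans batches. With each method first set against the unselected libraries of its batch, 21 members were called, 6 higher and 15 lower, and library totals gave 9 higher and 45 lower with the median gene at -0.28. Abcf1 was highest on the polyA side (40.0 to 51.8 against 24.4 to 26.8, log2 0.88, SE 0.04, edgeR adjusted p = 9.95e-18), followed by Abcf2 (0.69) and Abcf3 (0.64). On the other side stood Abcc9 (log2 -1.47), Abca9 (-1.37), Abcc1 (-1.29), Abca1 (-1.25), Abcg1 (-1.16) and Abca5 (-1.11). None of the 11 ABCA genes was higher with polyA selection and 10 were lower.

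Fragment length mattered most within polyA libraries, where Slco1b2, Slco1a1 and Slc10a2 rose and Slc22a7 and Abcc10 fell as fragments lengthened. Long against short fragments called 44 of 68 members in polyA libraries, 20 higher and 24 lower, with 52.9 percent of all 14454 genes called (26.5 higher, 26.4 lower). In pull-down libraries 27 members were called, 13 higher and 14 lower, with 35.7 percent of all genes (20.6 higher, 15.1 lower). Library totals split that comparison as 5 higher and 31 lower with the median gene at -0.18, and without the low-depth library 39 were called (21 higher, 18 lower). In digestion libraries 3 were called, all lower, with 6.08 percent of all genes (4.31 higher, 1.77 lower). They were Slc22a23 (log2 -0.21, edgeR adjusted p = 0.000658), Abcg8 (-0.16, edgeR adjusted p = 0.028) and Abcb10 (-0.15, edgeR adjusted p = 0.0329). Leaving out the libraries of 1 ramp at a time left 15 to 40 calls in pull-down and 0 to 2 in digestion. With the 9 libraries of a method fitted alone, pull-down gave 3 calls of 60 members (2 higher, 1 lower) beside 1346 of all genes (996 higher), and digestion 12 of 65 (1 higher, 11 lower) beside 2798 of all genes (1406 higher).

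Slco1b2 had, in polyA libraries, 432, 375 and 372 normalised CPM with short fragments at slow, medium and fast ramp, 486, 427 and 438 with medium fragments and 707, 654 and 705 with long ones. Each long library exceeded every short and medium one (long against short log2 0.79, SE 0.15, edgeR adjusted p = 0.000103). In digestion libraries the same gene stayed between 517 and 552 at all lengths (log2 0.07, edgeR adjusted p = 0.879). In pull-down libraries it had 578, 560 and 607 with short fragments and 342, 708 and 755 with long ones, where 342 was the low-depth library. The log2 change was 0.12 with that library (edgeR adjusted p = 0.555) and 0.38 without it (edgeR adjusted p = 6.62e-07). Leaving it out also brought calls in pull-down for Slco2b1 (log2 -0.19), Abcg2 (0.16) and Abcc2 (0.08, edgeR adjusted p = 0.047), and moved Slco1a1 from 0.40 to 0.61. Over all selected libraries it brought calls for Abcg2 (0.15) and Abcc2 (0.08).

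Slc10a2 rose in polyA libraries from 11.5, 9.74 and 9.25 to 18.7, 18.1 and 19.4 between short and long fragments, without overlap (log2 0.86, SE 0.09, edgeR adjusted p = 4.83e-08). Slco1a1 rose from 156, 142 and 140 to 247, 239 and 262 (log2 0.75, SE 0.13, edgeR adjusted p = 6.16e-05). Slco1a4 also rose (log2 0.58, edgeR adjusted p = 1.49e-06), as did Abca5 (0.59) and Abce1 (0.53). Slc22a30 and Slc22a28 gave log2 0.53 and 0.52, but share 43% and 68% of their 31-mers with other transcripts, so their reads may be split unevenly.

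Other members fell as fragments lengthened. Abcc10 fell in polyA libraries from 11.5, 12.9 and 13.4 to 7.84, 9.39 and 7.81, below in all 3 ramps (log2 -0.61, SE 0.10, edgeR adjusted p = 3.06e-05). Slc22a7 fell from 4.73, 4.16 and 4.25 to 3.02, 3.92 and 2.88 (log2 -0.43, edgeR adjusted p = 0.00398). Abca2, a lysosomal lipid carrier, fell from 41.9, 48.2 and 46.1 to 34.3, 35.1 and 32.6 (log2 -0.44, edgeR adjusted p = 5.88e-05). The Slc22a7 call was lost without the slow-ramp pair and without the fast-ramp pair, at -0.32 and -0.37. Of the 8 uptake genes, long fragments raised 3 (Slco1a1, Slco1a4, Slco1b2) and lowered the other 5.

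Pooling the 27 selected libraries, 37 members were called, 14 higher and 23 lower, with 46.3 percent of all genes called (25.7 higher, 20.5 lower). Library totals gave 7 higher and 27 lower, and with no filter on low counts 14 rose and 14 fell. Without the low-depth pull-down library 48 were called, 23 higher and 25 lower, beside 7522 of all genes. The length effect itself differed between methods for 33 of 68 members, with 34.1 percent of all genes. Among these were Slc10a2 (edgeR adjusted p = 0.00021), whose long against short log2 difference was 0.77 less in digestion and 0.31 less in pull-down than in polyA libraries, and Abcc10 (edgeR adjusted p = 0.00939).

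The direction followed GC content. Members were split into 3 classes of nearly equal size by the GC of the longest transcript. In polyA libraries, of 23 members with 35.67 to 45.17% GC, long fragments raised 17 and lowered none (median log2 0.35). Of 22 members with 45.19 to 52.1% GC, 3 rose and 4 fell (median -0.02). Of 23 members with 52.34 to 59.41% GC, none rose and 20 fell (median -0.30). Pull-down gave 9 rises and 0 falls, 3 and 3, and 1 and 11 over the same classes, and digestion gave only the 3 falls, all in the class of highest GC. Spearman's rank correlation between GC and the length effect was -0.86 over 68 members in polyA libraries, -0.63 in pull-down and -0.22 in digestion. Over 12931 protein-coding genes it was -0.81, -0.63 and -0.19, so the members followed the pattern of coding genes at large. The 4 coding stretches printed above come from the lowest and the highest of these classes.

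**Figure D3:**
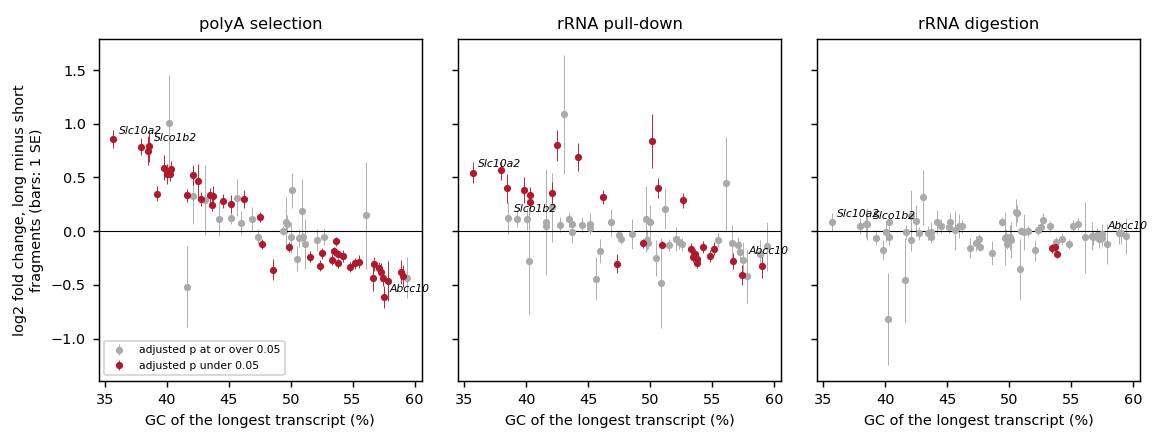
Log2 fold change of long against short fragments for 68 members by GC content of the longest transcript in each method (bars are 1 SE, red where the adjusted p is under 0.05). Called members in polyA libraries run from Slc10a2 at 0.86, with low GC, to Abcc10 at -0.61, with high GC, and in digestion libraries most lie close to 0.

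**Figure D4:**
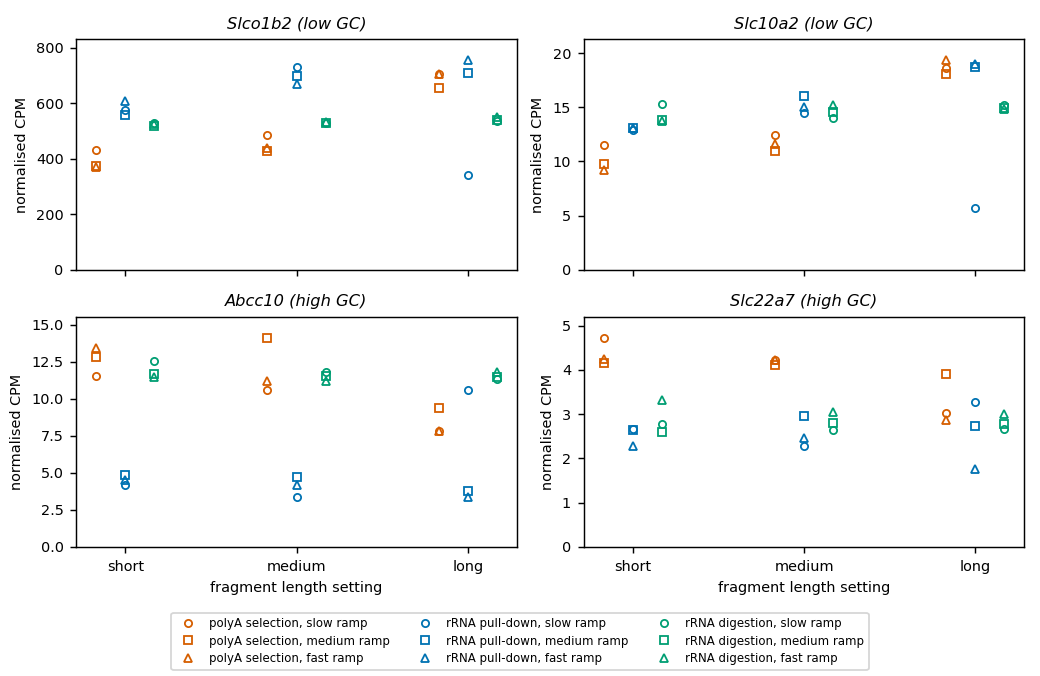
Normalised CPM of Slco1b2, Slc10a2, Abcc10 and Slc22a7 at each fragment length, with 1 symbol per library, coloured by method and shaped by ramp. The low-GC pair climbs and the high-GC pair declines in polyA libraries, digestion libraries stay level, and the low-depth pull-down library (slow ramp, long fragments) stands apart.

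PCR ramp called no member. Fast against slow ramp gave 0 calls of 68 by edgeR's quasi-likelihood test, with 0.00692 percent of all genes called. At an unadjusted p under 0.05 there were 0 members and 599 genes, and DESeq2 also called 0 members. The unselected libraries of batch 2 and batch 1 gave 0 calls of 69, with 0.0 percent of all genes. At an unadjusted p under 0.05 this comparison had 3 members and 848 genes, and DESeq2 called 0 members and 18 of all genes. The 6 unselected libraries fitted alone gave 0 members and 39 of all genes, so the batches were not free of differences.

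Heart and liver used different parts of the repertoire. With a single heart library there is no test. A member was called different where heart and the mean of the 3 unselected liver libraries of batch 1 differed at least 2-fold and heart lay outside the liver range, and the heart value carries a 95% Poisson interval for counting error only. Levels here are scaled over the 7 unselected libraries and can differ in the last digit from those above. Of the 96 members, 64 had enough counts (at least 10 in the heart library or in every one of the 3 liver libraries), of which 30 were lower in heart, 15 higher and 19 neither, while 32 had too few. Of 12744 genes with enough counts, 49.5 percent were called (27.9 higher, 21.6 lower). The median log2 difference was -0.84 for members and 0.07 for all genes. In bulk tissue, fewer cells of a type and less RNA per cell cannot be told apart.

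Every hepatocyte uptake gene that met the count rule except Slc22a5 was lower in heart. Slc10a1 had 0.692 normalised CPM in heart (5 counts, interval 0.225 to 1.62) against 232, 246 and 253 in liver, 353-fold lower. Slco1b2 had 2.08 in heart against 520, 532 and 540 in liver (255-fold lower) and Slco1a1 had 1.52 (175-fold lower). Slc22a5, the carnitine carrier, was the exception at 16.1 in heart and 21.2 ± 1.39 in liver (SD, n = 3), and Slc22a7, with 1 count in heart and 14, 15 and 9 in liver, fell short of the count rule.

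Canalicular genes followed. Abcb11 had 1.66 in heart and 477, 502 and 505 in liver (298-fold lower), and Abcc2 had 3.88 in heart and 713, 719 and 744 in liver (187-fold lower). Abcg5 had 3 heart counts and was 192-fold lower, with a counting interval of 65.8 to 933, and Abcg8 was 124-fold lower. Among sinusoidal genes Abcc6, also with 3 heart counts, was 373-fold lower (counting interval 128 to 1811) and Abcc3 157-fold lower. The drug pump Abcb1a, which sits in vessel walls, was the 1 canalicular-list gene higher in heart, at 17.6 against 4.45 ± 0.424 in liver (SD, n = 3; 3.95-fold). It shares 23% of its 31-mers with other transcripts, chiefly Abcb1b, which was also higher (3.16-fold). Of the 5 sinusoidal endothelial markers, 1 was higher in heart (Kdr, 166 against 55.6) and 3 were lower. They summed to 173 in heart and 169 to 188 in liver, and any link to Abcb1a was not tested.

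Heart instead held the sulfonylurea receptors. Abcc9 had 364 normalised CPM in heart (interval 350 to 378) against 24.5, 28.2 and 33.6 in liver, 12.7-fold higher. Abcc8 had 178 heart counts and none in the liver libraries, at least 38.7-fold higher with liver set to a floor of 3 counts per library. Slco5a1 (184 heart counts, at least 40.0-fold higher) and Abca12 (at least 14.8-fold higher) were likewise at 0 counts in these liver libraries. The organic anion carrier Slco3a1 had 48.5 in heart against 2.89 in liver (16.8-fold higher), Abcc1 33.6 against 2.4 (14.0-fold) and Abcc5, a cyclic nucleotide pump, 42.1 against 8.00 (5.26-fold). Of the 5 stellate cell markers, 2 were higher and 3 lower in heart, and Des, which is also a muscle gene, gave 603 of their summed 632 normalised CPM there. Within the chromosome 11 ABCA cluster the neighbours differed, with Abca6 16.5-fold lower and Abca9 6.40-fold higher in heart.

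The translation genes Abce1, Abcf1, Abcf2 and Abcf3 were called in neither direction, nor were Abcb8 and Abcb10 of the mitochondrial list, whereas Abcb6 of that list was 5.25-fold lower in heart. Of the bile acid and xenobiotic partner genes, 16 of 16 with enough counts were lower in heart. This list and the uptake and canalicular lists were chosen as liver genes, and the count rule admits genes by liver counts alone. Lower heart values were therefore largely set by that choice, and the counts for these lists are no separate evidence. The tissue labels matched the markers: 5 cardiomyocyte markers summed to 27420 in heart against 0.223 to 0.617 in liver, and 5 hepatocyte markers to 177 against 49608 to 50360. How much of the low heart values of liver transporters came with that hepatocyte signal was not tested.

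**Figure D5:**
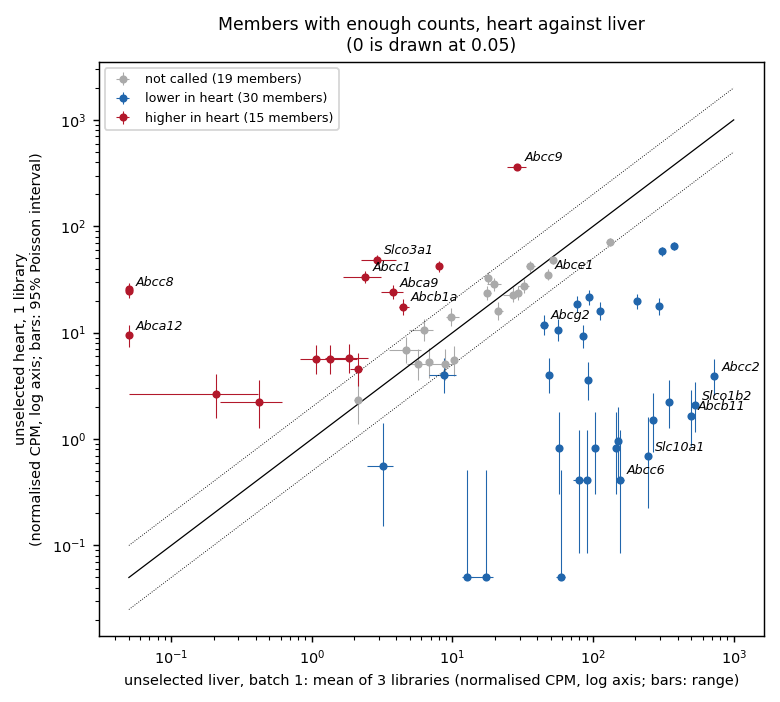
Normalised CPM of the 64 members with enough counts in the heart library (95% Poisson interval) against the mean of 3 unselected liver libraries (bars give the range), both on log axes, with 0 drawn at 0.05 and dotted lines at 2-fold. Bile acid carriers and pumps lie far below the diagonal, Abcc9 and Slco3a1 above it.

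Members often sit beside relatives in the genome. Counting neighbours within 100 kb, 38 of the 96 members fell into 14 clusters, among them Slc22a19, Slc22a26, Slc22a27, Slc22a28 and Slc22a29 at chr19:7673061-8218900, Abcb1a, Abcb1b and Abcb4 at chr5:8660077-8959231 and Slco1a4 with Slco1a1 at chr6:141805440-141946962 (GRCm38). Reads of near copies can be divided unevenly by the quantification. More than 20% of transcript 31-mers were shared with another gene for 10 members, highest for Slc22a28 (68%) and also for Slc22a27 (47%), Slc22a29 (44%) and Slc22a5 (38%, chiefly with Slc22a21).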

How the data were processed

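RNA-seq of 33 mouse liver libraries and 1 heart library was analysed. The values are Salmon expected counts per gene deposited by the authors. The submitters' processing notes name UMI-tools 1.1.1, Salmon 1.9.0, R 4.4.0 and the build GRCm38, with no role or order. The transcript set and the use of the molecular identifiers were not given in the sources used here. Of 51368 gene IDs, 50896 matched GENCODE M21 on GRCm38, and the other 472 held at most 0.0452% of any library's counts. All value columns were used.

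Expected counts were rounded and tested in R 4.3.3 with edgeR 4.0.16 (TMM scaling, filterByExpr with a minimum count of 10, quasi-likelihood F-test, Benjamini-Hochberg adjustment over all tested genes, threshold 0.05). Selected libraries were compared with the unselected ones of their batch, and with each other, in 1 fit of all 33 liver libraries. That fit held group, ramp and length, with 1 length effect shared by all groups. It leaves out the difference in length effect between methods that was called for 33 of 68 members. Fragment length and ramp were tested over the 27 selected libraries. Tests of length within a method or between methods gave each method its own length effect. Libraries are technical preparations, so p-values measure only the spread between them. The tests of polyA selection against unselected batch 1 and of pooled long against short fragments were run on simulated counts. Each simulation held 200 changed genes and no other difference between groups, lengths or ramps. The first recovered 58% of 1.5-fold and 79% of 2-fold changes, with 11 false calls. The second recovered 88% and 99%, with 9 false calls. Other comparisons were not simulated.

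Genes named in the text are the 8 uptake and 7 canalicular genes and, per comparison, up to 6 further called members in each direction with the largest fold change and non-overlapping groups (10 for heart). Others complete a list or cluster, and were named with their values seen. A few genes that the rule covers are not reported here. The members and lists were chosen with earlier results of these data known. Alternatives were DESeq2 1.42.0, other scalings, no filter on low counts, smaller fits, and leaving out single libraries or ramps. Sums over list members are of normalised CPM.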

Additional observations from a re-analysis of the deposited data

Results flagged for a closer look

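The effect of long against short fragments differed between polyA, pull-down and digestion libraries for 6 of 14 uptake and canalicular genes by edgeR's test of the difference. The adjusted p was 0.000374 for Slco1a4, 0.00948 for Abcg2, 0.0142 for Slco1b2, 0.0214 for Slco1a1, 0.0289 for Abcb4 and 0.0373 for Slco2b1. Without the low-depth pull-down library the adjusted p of these 6 ran from 1.51e-08 for Slco1b2 to 0.00157 for Abcb4, and the test then also called Abcg5 (adjusted p = 0.0271, against 0.0715 with that library) and Abcg8 (0.0233, against 0.600). The pull-down minus polyA difference in the log2 length effect then moved from -0.67 to -0.41 for Slco1b2, from -0.35 to -0.14 for Slco1a1 and from 0.11 to 0.05 for Slco2b1.

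Single libraries stood far from the other 8 of their method in 5 of 42 gene and group combinations examined. Chance marks about 1 in 20 of independent combinations, but these share libraries, so the rate cannot be set beside the count. Most of the marks came from the low-depth pull-down library. The pull-down library with slow ramp and long fragments, which had the lowest total count, was the lowest of its method for Slco1b2 at 341.5 normalised CPM, for Abcb11 at 333.3 and for Abcg2 at 31.86, and the highest for Abcb1a at 6.536, which rests on 8 counts. The digestion library with slow ramp and long fragments was the farthest for Abcb1a at 5.27 normalised CPM.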

How the results depend on the processing

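Counts of called members stayed within 1.5 times of the reported ones except as follows. Requiring at least 2-fold left 6 (polyA selection), 1 (pull-down) and 0 members (digestion) against unselected libraries, 3 for digestion against pull-down, 8 for polyA selection against digestion, and 0 for each fragment-length comparison. Library totals called 69, 68 and 69 members against unselected libraries. The digestion count of 6 became 11 with DESeq2, 10 without the low-depth pull-down library, 27 with the 2 groups fitted alone and 10 with medium-length libraries only, an alternative chosen after seeing the data. PolyA selection against digestion gave 21 with each set against its unselected batch. For fragment length, pull-down gave 3 with its 9 libraries alone and 15 to 40 in turn without 1 ramp. Digestion gave 1 with no filter on low counts, 6 with DESeq2 (1 higher, 5 lower), 5 without the low-depth library, 12 with its 9 libraries alone and 0 to 2 without 1 ramp. Leaving out single unselected libraries gave 27 to 32 calls (polyA selection), 16 to 19 (pull-down) and 4 to 6 (digestion). The heart count was 45 without any single liver library and 49 (20 higher, 29 lower) on library totals, which moved the median gene to 0.60. Where not given in the report, the cause was not tested. Across all alternatives 122 values of single genes lost and 73 gained a call. No called value of a single gene changed sign where library totals were taken relative to the median of all genes. On unshifted library totals every call against unselected libraries is higher, so the lower calls there reverse. Without the low-depth library, Abcb11 and Abcb4 (27 libraries) and Abcb11 (pull-down) changed sign in long against short fragments, none of them called. The replicate block on the 6 unselected libraries called 0 members and 91 of all genes, against 0 members and 39 genes without it. Same-numbered libraries had correlated deviations of 0.0275, -0.00309 and -0.0527, so the numbers did not pair them. Depth limits members of few counts, since unselected libraries held at most 28738 counts on the whole set.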
